A study of Mus musculus with 6 samples.

Results

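De novo lipogenesis, the synthesis of fatty acids from carbohydrate carbon, was followed through 10 genes: the transcription factors Srebf1 and Mlxipl, the enzymes Pklr, Acly, Acss2, Me1, Acaca, Acacb and Fasn, and the lipogenic protein Thrsp. They were taken by gene symbol from a table of 18444 genes measured in the liver, and all 10 were listed in every one of the 6 libraries. The animals were male mice, C57BL/6 in the labels and C57BL/6J in the methods, and 1 library was sequenced for each condition. Their stated age of 6 to 8 weeks can only be that before the diets, which ran for 16 weeks. The age at which livers were taken is not given. The diet model ran for 16 weeks. It consisted of SD, labelled as the chow diet control, HFD, labelled NASH, and HFD with JT003 given for 4 weeks at 500 μg/kg. The CCl4 model ran for 6 weeks. It consisted of the corn oil vehicle (Oil), CCl4, labelled fibrosis, and CCl4 with JT003 given for 3 weeks at 500 μg/kg. CCl4 was injected as a 20% solution in oil at 5 ml/kg every 3 days. JT003 is a synthetic peptide agonist of the adiponectin receptors AdipoR1 and AdipoR2. The study describes the sequenced diet livers as those of mice on HFD alone, for which its methods use the name NAFLD, keeping NASH for HFD that ends in a diet deficient in methionine and choline. Groups held 6 mice, fasted for 8 h before the livers were taken, and the number of mice behind a library is not given in the sources used here.

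When glucose and insulin are plentiful, the liver turns glycolytic pyruvate into mitochondrial citrate, exports it, and cleaves it to cytosolic acetyl-CoA, which is carboxylated to malonyl-CoA and built into palmitate. Insulin and LXR raise SREBP1c, the hepatic product of Srebf1, while glucose metabolites activate ChREBP, the product of Mlxipl, and both factors switch on the enzymes of the pathway. AMPK, a kinase downstream of the adiponectin receptors, inhibits both acetyl-CoA carboxylases by phosphorylation, which transcript counts do not show. Fasting lowers the pathway in the liver, and it also follows the time of day.

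The libraries held 19374255 to 20184578 counts, and the hepatocyte transcript Alb stood at 1067046 to 1521012 counts. Of 9 markers of fat cells, which also make fatty acids, 8 were listed and summed to 1367 to 2520 FPKM, chiefly from Pck1 and Car3, which hepatocytes express as well. Adipoq was at 0 in 4 libraries, at 1 count in CCl4 and at 11 in Oil, and Plin1 and Retn were highest in Oil, at 6 and 5 counts. With 1 library per condition there was no replicate and no test. Intervals given with a ratio are 95% exact (Clopper-Pearson) intervals of the counts, which cover counting error only. A gene was said to rise or fall when it differed at least 2-fold between 2 libraries, and the share of all measured genes that did so is given beside the counts of the 10 genes. In bulk liver, fewer cells of a type and less RNA per cell cannot be told apart.

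The promoters of 4 of the genes are shown because these genes took different courses in the libraries: Pklr and Fasn peaked in CCl4, Thrsp in HFD+JT003 and Acacb in SD. Each is the 250 bases before a RefSeq transcription start in the GRCm38.p6 assembly, 5′ to 3′ on the strand of the gene. The windows are chr3:89136373-89136622 (plus strand) for Pklr, chr11:120824548-120824797 (minus strand) for Fasn, chr7:97417551-97417800 (minus strand) for Thrsp and chr5:114165268-114165517 (plus strand) for Acacb. The expression files were made on another build, mm9, and carry no coordinates. Capitals mark an inverted CCAAT box (ATTGG or its complement) and, in Pklr, the sites CACG and CGTG spaced by 9 bases, the kind of paired element through which ChREBP acts.
Pklr: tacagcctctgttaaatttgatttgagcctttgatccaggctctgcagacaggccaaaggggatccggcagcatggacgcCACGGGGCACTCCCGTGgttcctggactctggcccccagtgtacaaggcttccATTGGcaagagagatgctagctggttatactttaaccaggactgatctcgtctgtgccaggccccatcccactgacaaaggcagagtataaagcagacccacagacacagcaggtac
Fasn: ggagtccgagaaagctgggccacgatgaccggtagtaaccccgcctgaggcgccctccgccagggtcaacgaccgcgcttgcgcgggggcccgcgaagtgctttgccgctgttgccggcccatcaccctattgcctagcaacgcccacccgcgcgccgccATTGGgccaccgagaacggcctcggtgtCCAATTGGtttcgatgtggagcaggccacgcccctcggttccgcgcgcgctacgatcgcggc
Thrsp: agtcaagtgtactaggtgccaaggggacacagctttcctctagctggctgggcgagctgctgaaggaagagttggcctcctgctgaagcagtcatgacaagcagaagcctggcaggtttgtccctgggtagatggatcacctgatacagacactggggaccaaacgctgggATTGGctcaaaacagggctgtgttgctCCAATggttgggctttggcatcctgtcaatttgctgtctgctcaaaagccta
Acacb: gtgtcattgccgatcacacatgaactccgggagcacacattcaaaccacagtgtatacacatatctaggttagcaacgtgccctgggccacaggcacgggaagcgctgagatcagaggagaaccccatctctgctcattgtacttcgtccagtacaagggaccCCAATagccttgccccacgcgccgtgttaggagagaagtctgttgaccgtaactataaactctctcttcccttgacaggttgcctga

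The RefSeq table held 15 start sites for the 10 genes, and motifs were sought on both strands. The paired sites of Pklr, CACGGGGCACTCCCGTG, began at position -170 from the start, and 0.221% of 32536 mouse promoters of this length held such a pair. An inverted CCAAT box, the site of the factor NF-Y, occurred in 9 of the 15 windows (60%) and in 33.8% of all promoters. Fasn held 3, of which a pair overlapped, at positions -90, -62 and -59, Thrsp held 2 at -79 and -52, and Acacb held 1 at -87. The E-box CACGTG was found in 1 window, at -98 of Mlxipl, against 6.04% of all promoters. The sterol response element, in a strict form of 10 bases, was in 0 of the 15 windows and in 0.0738% of all promoters, and the direct repeat of AGGTCA spaced by 4 bases, the kind bound by LXR, in 0 and in 0.0154%. The GC box GGGCGG was in 6 windows, of Acly, Srebf1, Me1, Acss2 and Mlxipl (40% and 33.0% of all promoters), and TATAAA in 2, at -31 of Pklr and -34 of Acacb. These matches are letters in a short window, with no measurement of binding here.

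**Figure D1:**
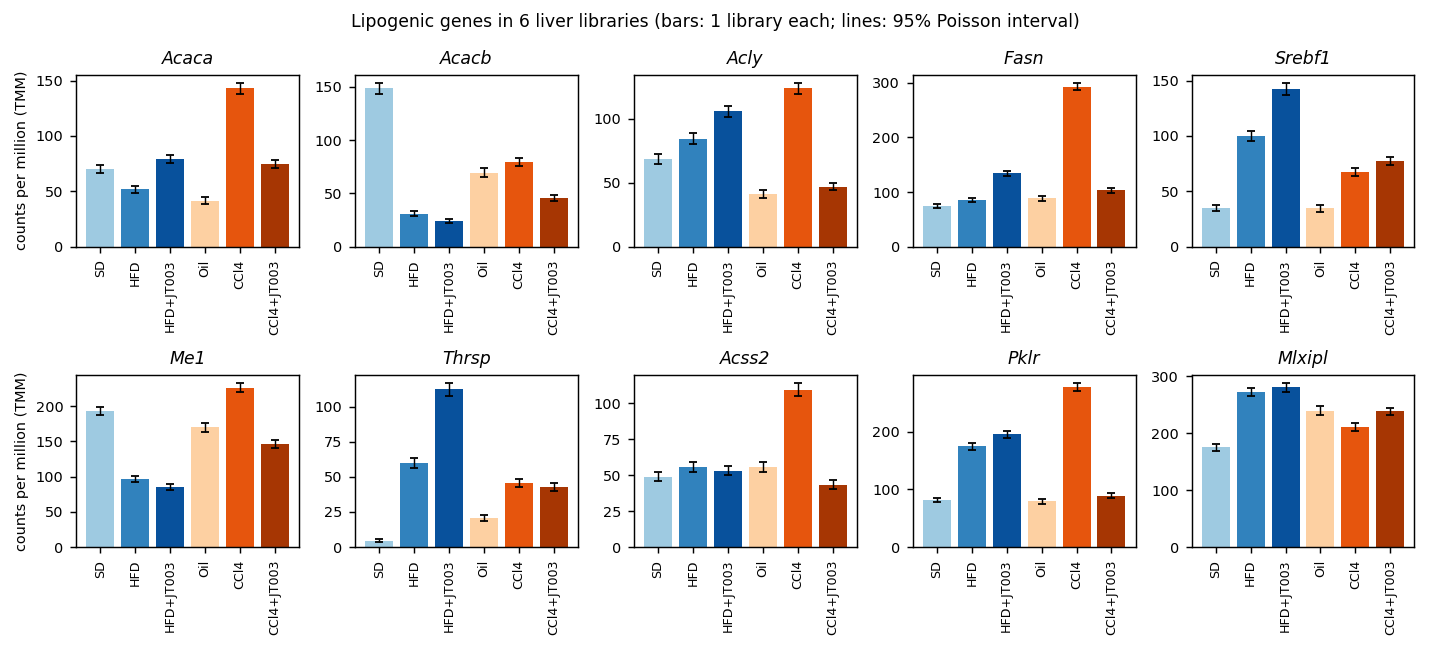
Level of each of the 10 genes (vertical axis, CPM after TMM scaling, from 0) in the 6 libraries (horizontal axis; blue, diet model; orange, CCl4 model). Bars are 1 library each and lines are 95% Poisson intervals of the count; CCl4 holds the highest bar of 6 genes, and Acacb has its highest bar in SD.

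The 6 libraries ordered the genes in different ways, as the plot of levels by library shows. Levels are given here as CPM, the TMM-scaled share of a library's counts. CCl4 was the highest library for 6 genes, Acaca, Acly, Fasn, Me1, Acss2 and Pklr. HFD+JT003 was the highest for 3, Srebf1, Thrsp and Mlxipl, and SD was the highest for Acacb. The lowest library was Oil for Acaca, Acly, Srebf1 and Pklr, SD for Fasn, Thrsp and Mlxipl, HFD+JT003 for Acacb and Me1, and CCl4+JT003 for Acss2. Of the 50 pairs of libraries that stood next to each other in these orders, 11 had a counting interval of their ratio that included 0.

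The regulators came first in the pathway. Srebf1 encodes SREBP1, the insulin-responsive activator of the lipogenic enzymes, and stood at 35.2 CPM in SD, 99.9 in HFD, 142 in HFD+JT003, 34.5 in Oil, 67.4 in CCl4 and 77.1 in CCl4+JT003. Both controls were thus low and next to each other, both diet libraries were highest, and the CCl4 libraries lay between. Mlxipl encodes the glucose-responsive factor ChREBP and measured 175 CPM in SD, 272 in HFD, 281 in HFD+JT003, 239 in Oil, 210 in CCl4 and 239 in CCl4+JT003. It varied least of the 10 genes, over a range of 0.68 on the log2 scale. Thrsp, a small protein induced by thyroid hormone and carbohydrate, varied most, over 4.63. Thrsp had 4.45 CPM in SD, 59.9 in HFD, 113 in HFD+JT003, 20.4 in Oil, 45.8 in CCl4 and 43.1 in CCl4+JT003. SD was therefore the lone library with hardly any Thrsp (84 counts), and Oil, the other control, was well above it.

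The enzymes that supply carbon and reducing power followed. Pklr, the liver pyruvate kinase at the end of glycolysis, was at 81.6 CPM in SD, 175 in HFD, 196 in HFD+JT003, 79.4 in Oil, 278 in CCl4 and 89.0 in CCl4+JT003. Acly, which cleaves citrate to acetyl-CoA, was at 68.3, 84.3, 106, 41.1, 124 and 46.8 CPM in the same order of libraries. For both genes CCl4+JT003 lay near Oil, whereas HFD+JT003 lay above HFD. Acss2, which makes acetyl-CoA from acetate, was at 49.0 CPM in SD, 55.4 in HFD, 53.1 in HFD+JT003, 55.3 in Oil, 109 in CCl4 and 43.4 in CCl4+JT003. CCl4 stood apart for this gene, and the intervals between HFD, Oil, HFD+JT003 and SD, taken as neighbours, each included 0. Me1, the cytosolic malic enzyme that yields NADPH, was at 193 CPM in SD, 96.4 in HFD, 84.8 in HFD+JT003, 170 in Oil, 226 in CCl4 and 146 in CCl4+JT003. Me1 thus had its lowest levels in the diet libraries, in which Srebf1 and Thrsp had their highest.

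Next came the enzymes of malonyl-CoA and palmitate. Acaca, the cytosolic acetyl-CoA carboxylase whose malonyl-CoA feeds synthesis, was at 70.1 CPM in SD, 51.8 in HFD, 79.1 in HFD+JT003, 41.7 in Oil, 143 in CCl4 and 74.5 in CCl4+JT003. Acacb, the mitochondrial carboxylase whose malonyl-CoA restrains the uptake of fatty acids for oxidation, was at 149 CPM in SD, 31.1 in HFD, 23.9 in HFD+JT003, 69.4 in Oil, 79.3 in CCl4 and 45.5 in CCl4+JT003. Acaca and Acacb thus had their highest levels in different libraries. Fasn, the synthase that builds palmitate, was at 74.7 CPM in SD, 85.3 in HFD, 134 in HFD+JT003, 88.6 in Oil, 293 in CCl4 and 103 in CCl4+JT003. Its CCl4 value was more than 2 times any other. Compared per transcript length, as FPKM, the most abundant of the 10 was Me1 in SD (54.9 FPKM), Mlxipl in HFD (75.0) and Pklr in CCl4 (109), and the lowest in CCl4 was Acacb (9.66).

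Between SD and HFD, Thrsp, Srebf1 and Pklr rose while Acacb and Me1 fell. Thrsp rose 13.2-fold, a log2 ratio of 3.72 (interval 3.43 to 4.09), and was the 29th highest ratio of 13335 genes. Srebf1 rose 2.83-fold (log2 1.5, 1.38 to 1.63) and Pklr rose 2.15-fold (log2 1.10, 1.02 to 1.19). Acacb fell by 2.26 on the log2 scale, with an interval of -2.39 to -2.13, and Me1 fell by 1.0, with an interval of -1.08 to -0.92. The classical synthesis enzymes stayed within 2-fold, at log2 ratios of 0.19 for Fasn, 0.30 for Acly, 0.18 for Acss2 and -0.44 for Acaca, and Mlxipl was at 0.64. In all, 5 of the 10 genes differed at least 2-fold, 3 higher and 2 lower, against 10.1% of all genes (5.94% higher, 4.15% lower). The median of the 10 was 0.25, and that of all genes 0.00.

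Me1 lay on the threshold, and its ratio was -0.88 when scaled to total reads, which left 3 genes higher and 1 lower and moved the median of all genes to 0.13. Over all genes the split was 792 higher and 554 lower with TMM and 985 and 442 with total reads. The levels of other genes moved along with these. Igfbp1 and Fgf21, both raised by fasting, fell by 3.24 and 3.30 on the log2 scale, and 4 of 14 clock genes rose and 2 fell, with Dbp at 2.03. Of 9 markers of stellate cells and myofibroblasts 5 rose, and their sum was 15.1 FPKM in SD and 42.8 in HFD. Cfd, a marker of fat cells, had 2 counts in SD and 454 in HFD, and Car3 rose (3.72), while Adipoq was at 0 in both; in all, 3 of 4 measured markers of fat cells rose. The part of these genes, of feeding state and of time of day in the difference was not tested.

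**Figure D2:**
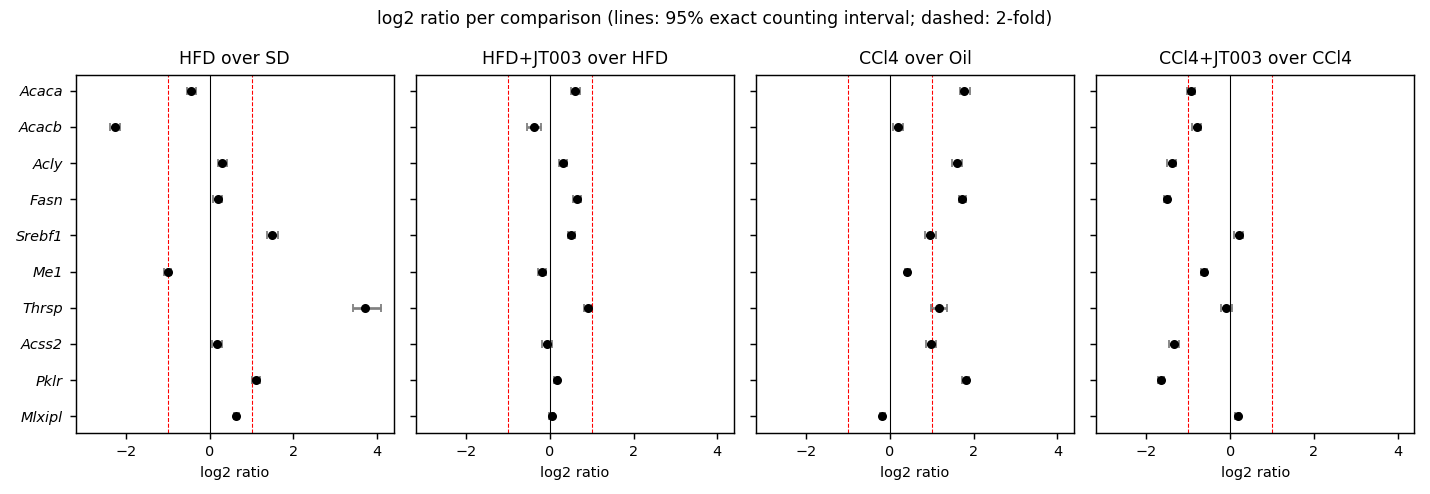
log2 ratio of each gene (horizontal axis) in the 4 comparisons (panels), with points for the ratio, lines for the 95% exact counting interval and dashed lines at 2-fold. With HFD the points spread to both sides, with JT003 on HFD none passes the dashed lines, and with CCl4 and with JT003 on CCl4 the points past the lines lie on 1 side.

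JT003 on HFD moved none of the 10 genes by 2-fold. The nearest was Thrsp, with 1204 counts in HFD and 2297 in HFD+JT003 and a log2 ratio of 0.91 (interval 0.81 to 1.01). Fasn (0.65, 0.56 to 0.74), Acaca (0.61, 0.5 to 0.72), Srebf1 (0.51, 0.43 to 0.59) and Acly (0.32, 0.23 to 0.42) had higher counts in HFD+JT003 than in HFD, beyond counting error. Acacb was lower, at -0.38 (-0.55 to -0.21), as was Me1, at -0.19 (-0.28 to -0.09), and Pklr was at 0.16. The intervals of Acss2 (-0.18 to 0.06) and Mlxipl (-0.01 to 0.10) included 0. Of the 10 genes 0 passed the threshold, against 4.71% of all genes, and the median of the 10 was 0.24 against 0.00. Set against SD, the library already used for HFD, HFD+JT003 had 5 of 10 genes at least 2-fold apart, 3 higher and 2 lower, against 11.1% of all genes (6.57% higher, 4.56% lower). Thrsp was then 24.7-fold higher, Srebf1 4.03-fold and Pklr 2.40-fold, while Acacb fell by 2.64 and Me1 by 1.19 on the log2 scale. Between HFD and HFD+JT003, 4 of 9 markers of stellate cells and myofibroblasts fell and 0 rose. Of 14 clock genes 1 rose and 2 fell, with Nr1d1 at 2342 counts in HFD and 661 in HFD+JT003. The part of these genes in the lipogenic ratios of JT003 on HFD was not tested.

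With CCl4 the enzymes of the main line, from pyruvate kinase through citrate cleavage and carboxylation to palmitate, rose together with Thrsp. Pklr rose 3.50-fold (log2 1.81, 1.72 to 1.89), Acaca 3.42-fold (1.77, 1.66 to 1.90), Fasn 3.31-fold (1.72, 1.64 to 1.81), Acly 3.0-fold (1.59, 1.47 to 1.71) and Thrsp 2.24-fold (1.16, 0.99 to 1.35). Acss2 and Srebf1 came just short of the threshold, at 0.98 (0.87 to 1.09) and 0.96 (0.83 to 1.11). Me1 was at 0.41 and Acacb at 0.19. Mlxipl, at -0.18, was the single gene with a lower value in CCl4, and with total reads its value was 0.08. Hence 5 of the 10 genes differed at least 2-fold, 5 higher and 0 lower, against 13.5% of all genes (8.34% higher), and the median of the 10 was 1.07 against -0.02. With total reads 7 were higher and the median of all genes was 0.24, and the split of all genes went from 1135 higher and 695 lower to 1652 and 447.

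The CCl4 library also differed from the Oil library in markers of other cell types and of cell division. Its 8 mitosis markers, which include Mki67 and Cdk1, summed to 80.3 FPKM, against 0.93 to 5.64 in the other libraries, and 8 of 8 rose. Macrophage markers summed to 110 FPKM in CCl4 and 33.5 in Oil, where 6 of 7 rose, and markers of stellate cells and myofibroblasts to 79.2 and 22.2, where 4 of 9 rose. Alb was at 1115249 counts in Oil and 1521012 in CCl4. Of 6 measured markers of fat cells 3 fell, with Cfd at 175 counts in Oil and 2 in CCl4 and Adipoq at 11 and 1. Of 5 bile duct markers 4 rose. Of 14 clock genes 3 rose and 6 fell, with Dbp at 824 counts in Oil and 96 in CCl4. The part of these genes in the lipogenic difference was not tested.

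With JT003 on CCl4, Pklr, Fasn, Acly and Acss2 fell. This comparison uses the CCl4 library again, so the ratios are not independent of those over Oil. Pklr fell by 1.64 on the log2 scale (-1.72 to -1.57), Fasn fell by 1.51 (-1.59 to -1.44), Acly fell by 1.40 (-1.51 to -1.30) and Acss2 fell by 1.33 (-1.45 to -1.22). Acaca, at -0.94 (-1.03 to -0.85), Acacb, at -0.80, and Me1, at -0.63, were lower but short of 2-fold. Of the regulators, Srebf1 was at 0.20 (0.09 to 0.30) and Mlxipl at 0.18 (0.12 to 0.24). Thrsp was at -0.09 (-0.22 to 0.04), and at 0.19 with scaling to hepatocyte markers. So 4 of the 10 genes differed at least 2-fold, 0 higher and 4 lower, against 8.85% of all genes (4.28% lower), and the median of the 10 was -0.87 against -0.02. Set against Oil, CCl4+JT003 had 2 genes at least 2-fold apart, against 11.1% of all genes (7.54% higher): Srebf1 at 1.16 and Thrsp at 1.07. The enzymes Pklr (0.17), Fasn (0.21) and Acly (0.19) were then close to the vehicle library, whereas Acaca was at 0.84 (0.71 to 0.97) and Acacb at -0.61 (-0.73 to -0.49).

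A second reading of CCl4 livers was at hand. One column of a deposited comparison table holds CCl4 counts that sum to 2.97 times the CCl4 library, and it appears, from the values, to pool that library with others. After the CCl4 library was subtracted, the rest (other CCl4 livers) measured lower than the CCl4 library for 8 of the 10 genes, with -0.82 for Me1, -0.66 for Acacb, -0.64 for Pklr, -0.63 for Acss2 and -0.32 for Fasn and Acly. Thrsp (0.38) and Srebf1 (0.23) were higher, the median of the 10 was -0.39, and 0 of them differed 2-fold, against 5.34% of all genes. Against Oil these livers still gave 6 of 10 genes at least 2-fold higher, against 16.5% of all genes (12.4% higher), with Fasn at 1.41 and Srebf1 at 1.19, while Acacb and Me1 were at -0.46 and -0.41. JT003 compared with the other CCl4 livers left 2 genes that fell, Fasn by 1.19 and Acly by 1.08 on the log2 scale, against 9.03% of all genes (6.46% lower). Pklr (-1.0, just under the threshold), Acss2 (-0.70) and Acaca (-0.57) were short of 2-fold, and Me1 was at 0.19.

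The CCl4 and CCl4+JT003 libraries also stood far apart in the clock. Dbp had 96 counts in CCl4 and 1931 in CCl4+JT003, and rose by a log2 ratio of 4.28, while Arntl had 386 and 34 counts and fell by 3.45. Of 14 clock genes 7 rose and 2 fell in this comparison. All 8 mitosis markers fell as well, with a median of -3.85, and 4 of 9 markers of stellate cells and myofibroblasts fell. What the clock and these markers contribute to the difference in the enzymes was not tested.

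**Figure D3:**
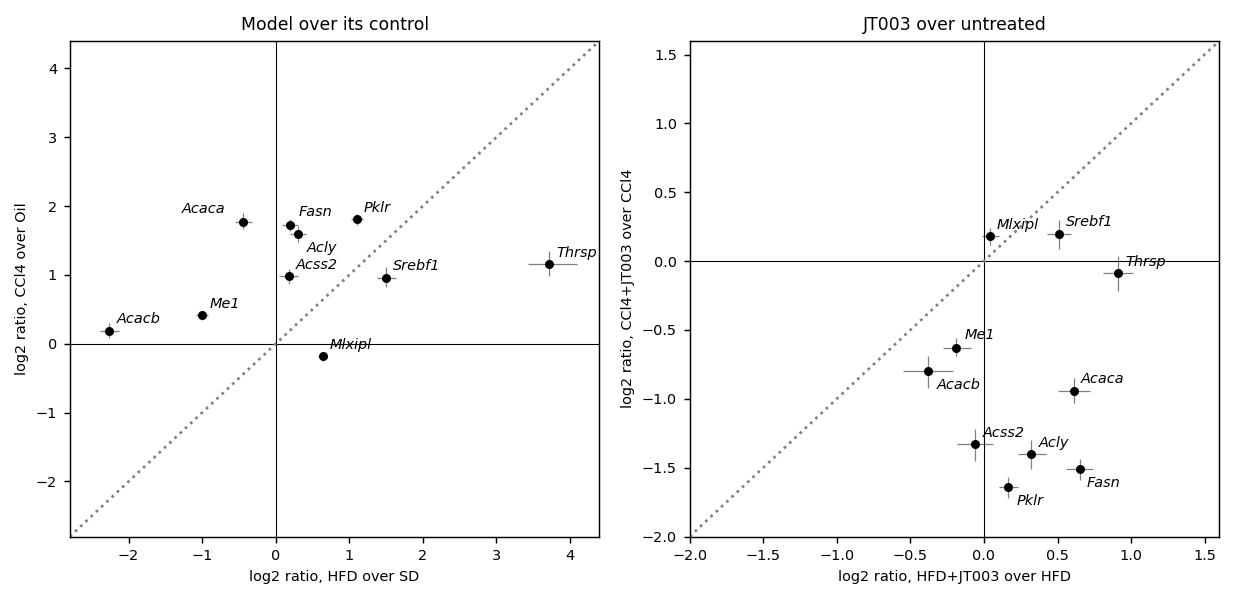
log2 ratios of the 10 genes in the diet model (horizontal axis) against the CCl4 model (vertical axis), for the model over its control (left) and for JT003 over the untreated model (right); points are genes, lines are 95% exact counting intervals, and the dotted line marks equal ratios. On the left Thrsp and Srebf1 lie to the right of the dotted line and Acaca, Fasn and Acly above it; on the right Fasn, Acly, Acaca and Pklr lie right of and below 0.

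Side by side, the ratios of the models over their controls differed most for Thrsp, Acacb and Acaca. The difference between the models, HFD over SD minus CCl4 over Oil, was 2.56 (95% Wald interval of the counts, 2.19 to 2.92) for Thrsp, -2.45 (-2.61 to -2.28) for Acacb, -2.21 (-2.37 to -2.04) for Acaca, -1.53 (-1.66 to -1.40) for Fasn, -1.41 (-1.52 to -1.31) for Me1 and -1.28 (-1.44 to -1.12) for Acly. These 6 of 10 genes had differences of at least 2-fold, 1 higher and 5 lower, against 21.0% of all genes (10.4% higher, 10.5% lower). Acss2 (-0.81), Pklr (-0.71), Mlxipl (0.82) and Srebf1 (0.54) differed by less. Pklr and Srebf1 thus had the more similar ratios in the models, and both were positive in each. These differences include the gap between the controls, for which Oil over SD was 2.17 for Thrsp, -1.10 for Acacb and -0.75 for Acaca. Thrsp was at 59.9 CPM in HFD and 45.8 in CCl4, and at 4.45 in SD and 20.4 in Oil. The diet model ran for 16 weeks and the CCl4 model for 6 weeks. With the other CCl4 livers in place of the CCl4 library, Acly (-0.97) and Me1 (-0.59) came under 2-fold and Mlxipl (1.23) passed it, which left 5 genes.

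For JT003 the gap between the models was positive for 9 of the 10 genes, of which Srebf1 was at -0.09 with scaling to hepatocyte markers, and Acacb and Me1 at -0.23 and -0.38 with the other CCl4 livers. It was 2.16 (2.05 to 2.27) for Fasn, 1.80 (1.70 to 1.90) for Pklr, 1.72 (1.58 to 1.86) for Acly, 1.55 (1.40 to 1.69) for Acaca and 1.27 (1.11 to 1.43) for Acss2, so that 5 of the 10 genes differed at least 2-fold, 5 higher and 0 lower, against 12.9% of all genes (6.15% higher). Thrsp lay at 1.0 (0.83 to 1.16), just under the threshold. Srebf1 (0.31), Me1 (0.44), Acacb (0.42) and Mlxipl (-0.14) differed less. For Fasn, Acly, Acaca and Pklr the JT003 library was above its untreated library in the diet model and below it in the CCl4 model, beyond counting error in each. The dose of JT003 was the same, but it was given for 4 weeks in the diet model and 3 weeks in the CCl4 model.

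The 2 controls were themselves unlike. Thrsp was 4.49-fold higher in Oil than in SD (log2 2.17, 1.85 to 2.56) and Acacb fell by 1.10 (-1.2 to -1.0), so that 2 of the 10 genes differed at least 2-fold, against 11.1% of all genes (5.11% higher, 5.94% lower). Acaca (-0.75) and Acly (-0.73) were lower in Oil, whereas Srebf1 (-0.03) and Pklr (-0.04) were close. The share of all genes past 2-fold was thus 11.1% between the controls, beside 10.1% between HFD and SD. All 7 macrophage markers were lower in Oil by at least 2-fold, with a median of -1.80 and a sum of 33.5 FPKM against 139 in SD. Of 6 measured markers of fat cells 4 rose, with Cfd at 2 counts in SD and 175 in Oil, as did 3 of 5 bile duct markers and 3 of 9 of stellate cells and myofibroblasts. Of 14 clock genes 2 rose and 0 fell. SD was fed for 16 weeks, and Oil was injected for 6 weeks. The part of these genes and of this gap in time in the differences of Thrsp and Acacb was not tested.

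**Figure D4:**
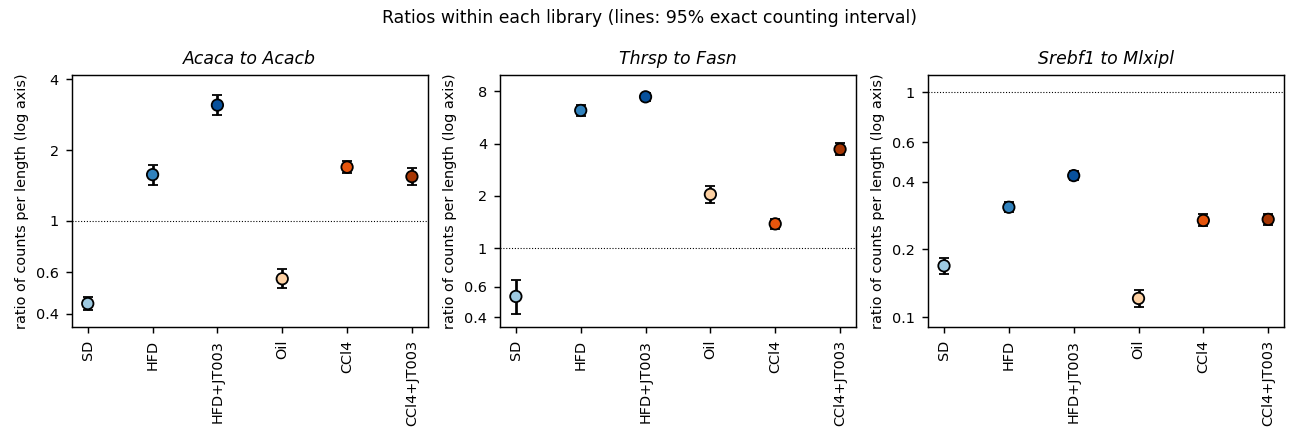
Ratio of the counts per length of 2 genes within each library (vertical axes, log scale; horizontal axis, library), for Acaca to Acacb, Thrsp to Fasn and Srebf1 to Mlxipl; points are 1 library each and lines 95% exact counting intervals. Acaca to Acacb is 0.442 in SD and 0.564 in Oil and above 1 in the 4 other libraries.

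Ratios between genes of the same library need no scaling between libraries. Acaca to Acacb, per length, was 0.442 (0.414 to 0.472) in SD and 0.564 (0.513 to 0.619) in Oil, so that the oxidation-restraining carboxylase was the more abundant in both controls. In HFD the ratio was 1.57 (1.42 to 1.73), in HFD+JT003 3.11 (2.81 to 3.45), in CCl4 1.69 (1.59 to 1.79) and in CCl4+JT003 1.54 (1.42 to 1.67). The synthetic carboxylase was thus the more abundant in these 4 libraries, in HFD with a fall of Acacb and in CCl4 with a rise of Acaca. The ratio was higher in HFD+JT003 than in HFD, and the intervals of CCl4 and CCl4+JT003 overlapped.

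Thrsp to Fasn was lowest in SD and highest in the 2 HFD libraries. The ratio per length was 0.527 in SD, 6.21 in HFD and 7.44 in HFD+JT003, and 2.04 in Oil, 1.38 in CCl4 and 3.71 in CCl4+JT003. Srebf1 to Mlxipl was 0.169 in SD and 0.121 in Oil, 0.308 in HFD, 0.426 in HFD+JT003, 0.269 in CCl4 and 0.272 in CCl4+JT003, with Srebf1 less abundant than Mlxipl in every library. Acly to Acss2, the citrate and the acetate route to acetyl-CoA, lay between 0.476 in Oil and 1.28 in HFD+JT003. Fasn to Acaca ranged from 0.970 in SD to 1.94 in Oil, with 1.5 in HFD and 1.87 in CCl4.

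The 10 genes did not move as 1 block. Over the 6 libraries, Pklr (Pearson r = 0.92) and Fasn (r = 0.90) followed the mean of the other 9 genes most closely, Acacb (r = -0.50) and Me1 (r = -0.15) did not, and Mlxipl was at 0.17. These are descriptions over 6 points that share libraries and scaling. Profiles like the mean of the 10 were sought among 2299 genes, a number that includes lipogenic genes. Outside the 10, the closest were Gpsm2 (r = 0.981), Pygl (0.965), Zbtb16 (0.953), Ces2g (0.951) and Cars (0.946). Pygl, the liver glycogen phosphorylase, had 3203 counts in SD, 5632 in HFD, 5518 in HFD+JT003, 3224 in Oil, 9451 in CCl4 and 4431 in CCl4+JT003.

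**Figure D5:**
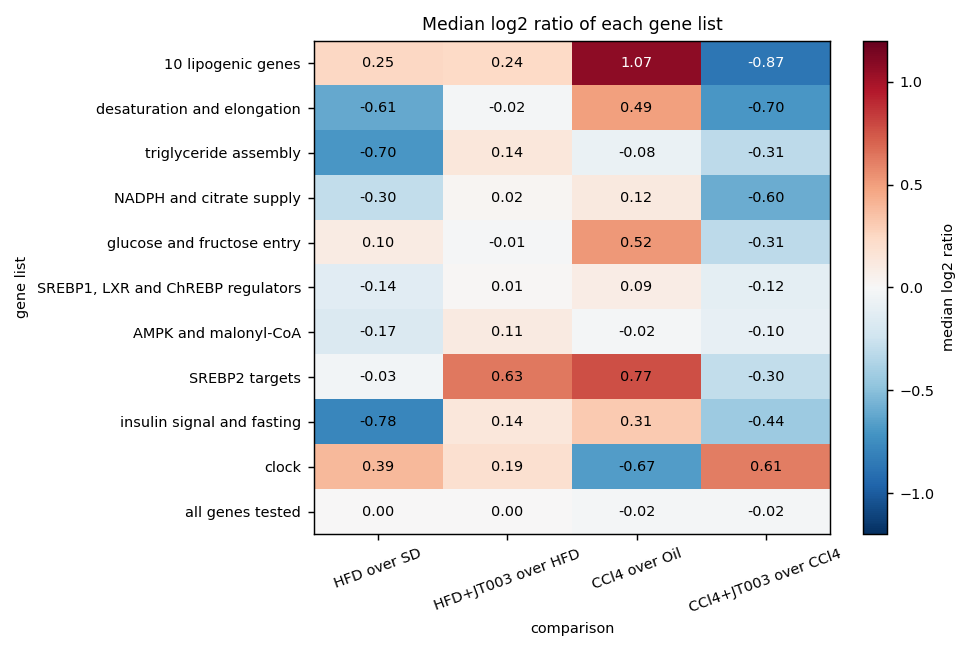
Median log2 ratio (colour and number) of each gene list (vertical axis) in the 4 comparisons (horizontal axis), with the median of all genes tested in the last line. The 10 lipogenic genes have 1.07 with CCl4 and -0.87 with JT003 on CCl4; the cholesterol genes have 0.63 with JT003 on HFD.

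The neighbouring steps of the pathway were read from lists of related genes, whose medians the colour plot of gene lists gives. Of 9 genes for NADPH and citrate, 2 rose with CCl4: Pgd (1.66) and G6pdx (1.74), both of the pentose phosphate pathway, and Pgd fell by 1.43 with JT003. Pgd had 359 counts in Oil, 1417 in CCl4 and 530 in CCl4+JT003. With HFD 0 of the 9 passed 2-fold, and with JT003 on HFD Nnt did (1.02).

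Among genes of glucose and fructose entry, Pdk4, the kinase that shuts pyruvate dehydrogenase, fell by 4.18 on the log2 scale with HFD, from 2207 counts in SD to 128 in HFD, and Ldha fell by 1.44. With CCl4 2 of 13 rose and 1 fell: Pdk4 (2.02) and Tkfc, a kinase of fructose breakdown (1.66), rose, and Pfkfb1 fell by 1.05. Tkfc fell by 1.13 with JT003 on CCl4, and with JT003 on HFD 0 of the 13 passed 2-fold.

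Downstream of palmitate, 2 of 8 genes of desaturation and elongation fell with HFD, the elongase Elovl5 by 2.34 and the desaturase Fads2 by 1.16 on the log2 scale. With CCl4 1 rose, Elovl6, which lengthens palmitate, at 1.55, and with JT003 on CCl4 1 fell, Elovl5 by 1.56. Of 12 genes of triglyceride assembly, Lpin1 (2.04) rose and Acsl1 and Lpin2 fell with HFD, by 1.33 and 1.0. With CCl4 Pnpla3 (2.05) rose and Mogat1 fell by 1.6, both from low counts of 7 to 43 and 28 to 10, and Gpam fell by 1.25 with JT003. With JT003 on HFD 0 genes of either list passed 2-fold.

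Upstream, 17 partners and regulators of SREBP1, LXR and ChREBP were read. With HFD Insig1 (1.2) and Mid1ip1 (1.30) rose and Insig2 and Txnip fell, by 1.58 and 1.13. Mid1ip1 is the homologue of Thrsp that helps acetyl-CoA carboxylase to polymerise, and it rose with CCl4 too (1.03), where Ppargc1b fell by 1.6. Insig1 and Insig2 hold the SREBP precursors in the endoplasmic reticulum. Insig2 had 14455 counts in SD, 5158 in HFD, 3749 in HFD+JT003, 9138 in Oil, 9183 in CCl4 and 2895 in CCl4+JT003, and fell by 1.68 with JT003 on CCl4. Txnip, a target of ChREBP, rose with JT003 on HFD (1.06). The receptors LXRα (Nr1h3) and RXRα (Rxra) had log2 ratios of -0.33 and -0.16 with HFD and of -0.18 and -0.03 with CCl4.

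Of 8 genes of AMPK and malonyl-CoA, 1 passed 2-fold in the 4 comparisons: Cpt1a, the carnitine transferase that malonyl-CoA inhibits, fell by 1.12 with HFD. Of 11 SREBP2 targets, the genes of cholesterol synthesis and uptake, 10 had ratios above 0 with JT003 on HFD, with a median of 0.63, and Idi1 (1.10) and Sqle (1.04), enzymes of cholesterol synthesis, rose. With CCl4 the median was 0.77, and Sqle rose (1.35). With JT003 on CCl4 0 of 11 passed 2-fold, with a median of -0.30.

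Of 11 genes of insulin signal and fasting, 4 fell with HFD, Fgf21 and Igfbp1 as given above, G6pc with a log2 ratio of -2.20 and Irs2, an insulin receptor substrate, with -1.44. With JT003 on HFD 3 rose, G6pc (1.53) and Fgf21 (1.44) foremost. With JT003 on CCl4 2 fell, Fgf21 by 1.35 and G6pc by 1.19. With CCl4 0 of the 11 passed 2-fold. Fgf21 had 691 counts in SD, 73 in HFD, 205 in HFD+JT003, 215 in Oil, 460 in CCl4 and 182 in CCl4+JT003. Their part in the differences of the lipogenic genes was not tested.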

How the data were processed

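Liver RNA was sequenced on a BGISEQ-500, with 1 library for each of 6 conditions. The authors deposited, per library, an expected count (an unnormalized estimate that need not be whole) and an FPKM value per gene (the count per transcript length and library size), with a transcript length. The submitters' processing notes name HISAT, Bowtie2, RSEM and the build mm9, with no versions. The authors' comparison tables also hold fold changes, p-values and q-values, which were not used, and 7 further expression columns of these tables were not used. Their CCl4 column, an authors' pooled expected count, served as an alternative: it sums to 2.97 times the CCl4 library, and 24 genes fall below that library, by 0.99 at most.

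Expected counts were rounded and library sizes scaled by TMM over the 6 libraries (edgeR 4.0.16, R 4.3.3). The log2 ratio used a prior count of 2. Its interval is the 95% Clopper-Pearson interval of the conditional binomial (scipy 1.17.1), and that of a difference of ratios a Wald interval of 4 counts. A gene counted as changed at 2-fold or more, and the background is every gene that reached 10 counts in any library of the comparison. No p-value was computed. Deposited FPKM was used to compare genes with each other. The ratio and its interval were tested on simulated Poisson counts scaled by library totals. Such counts hold only the counting error that the interval assumes, so the test checked the arithmetic. It did not cover the TMM scaling or the spread between mice. Software was numpy 2.4.6, pandas 2.3.3 and matplotlib 3.10.9 under Python 3.11.15. Promoters came from a RefSeq table, in which all 10 genes matched.

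The 10 genes and the gene lists were chosen with earlier results of these data known. Named were all 10 genes, up to 2 of the largest rises and 2 of the largest falls of each list in a comparison, the 5 genes most similar in profile (at least 10 CPM on average and a range of at least 1 on the log2 scale), and markers that bear on a result. Genes that complete a count of 5 or fewer, and Rxra, Nr1h3, Mki67 and Cdk1, were named after their values were seen. Alternatives were total reads, size factors of DESeq2 1.42.0, TMM within a model, scaling to hepatocyte markers, a prior count of 0.5, a 1.5-fold threshold, log2 of FPKM plus 1 or 0.1, minimums of 1 or 100 counts, and the pooled CCl4 counts or their rest. The values of some genes of these lists are not reported here.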

Additional observations from a re-analysis of the deposited data

Results flagged for a closer look

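Several genes stood on opposite sides of their reference library in the diet and the CCl4 model, with both counting intervals clear of 0. None of these differences was tested, since each rests on 1 library per condition. With JT003 the difference between the models was 2.16 for Fasn (0.65 on HFD and -1.51 on CCl4), 1.80 for Pklr (0.16 and -1.64), 1.72 for Acly (0.32 and -1.40) and 1.55 for Acaca (0.61 and -0.94), all on the log2 scale. With the other CCl4 livers in place of the CCl4 library these were 1.84, 1.16, 1.40 and 1.18. With scaling to hepatocyte markers Pklr was at 0.04 for JT003 on HFD.

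For the model over its control the difference was -2.45 for Acacb (-2.26 with HFD and 0.19 with CCl4), -2.21 for Acaca (-0.44 and 1.77), -1.41 for Me1 (-1.0 and 0.41) and 0.82 for Mlxipl (0.64 and -0.18). For Acacb and Me1 the other CCl4 livers had values of -0.46 and -0.41 over Oil, on the same side as HFD over SD. For Mlxipl the value with total reads was 0.08. Acaca was on opposite sides in these settings too, at 1.40 with the other CCl4 livers and 2.04 with total reads.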

How the results depend on the processing

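No paired analysis was possible because each condition has 1 library, and no replicate could be left out. Of 77 counts of lipogenic genes past the threshold under other settings, 73 stayed within 1.5 times the reported count. The 77 include the settings with another minimum count. That minimum decides only which genes form the background, so these settings could not change a count of lipogenic genes. Their agreement is therefore no evidence of stability. At a 1.5-fold threshold 3 genes passed with JT003 on HFD, 7 with JT003 on CCl4 and 4 between Oil and SD. With the other CCl4 livers 2 passed with JT003 on CCl4. Of 27 ratios and differences past 2-fold, all 27 remained there with DESeq2 size factors and with a prior count of 0.5, 26 with total reads, FPKM plus 1 or FPKM plus 0.1, and 25 with hepatocyte scaling, and 0 changed sign. With TMM within a model all 25 that it covers remained, with the pooled CCl4 counts 17 of 20, and with the other CCl4 livers 15 of 20. The median of the 10 genes for the difference between the models was -1.04, and -0.38 with the other CCl4 livers.

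The background share moved more: for HFD over SD 1346 genes passed, 3150 at 1.5-fold, 542 with FPKM plus 1 and 696 with at least 100 counts, and for JT003 on HFD 633, 1935, 150 and 188. For CCl4 over Oil they were 1830, 3966, 763 and 814, and for JT003 on CCl4 1220, 3338, 391 and 528. For the difference between the models they were 2923, 5603, 1182 and 1502, for that of JT003 1821, 4093, 561 and 767, and for Oil over SD 1470, 4076, 422 and 635. With at least 1 count, 1284 passed for JT003 on HFD, 1880 for JT003 on CCl4, 2268 for Oil over SD and 2916 for the difference of JT003. Hepatocyte scaling moved the median of all genes to 0.32 for HFD over SD, 0.27 for JT003 on CCl4 and -0.38 for the difference of JT003, so ratios there are relative to that shift. The spread between mice cannot be estimated from these libraries.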
